A study of Homo sapiens with 6 samples.

Results

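The genes described here belong to the repair routes that replace damaged or mispaired bases from a single strand, namely mismatch repair, nucleotide excision repair and base excision repair. They were taken by symbol from the deposited table, and all 34 were found among its 58735 genes, 5 for mismatch repair, 10 for nucleotide excision repair and 19 for base excision repair. mRNA of TPC-1, a human papillary thyroid carcinoma cell line, was sequenced in 3 libraries of the wild strain and 3 libraries of the *RRM2* overexpression strain (*RRM2*-OE-TPC-1, here OE cells). *RRM2* encodes the small subunit of ribonucleotide reductase, which makes deoxynucleotides for DNA synthesis. OE cells had been infected with a lentivirus that carries *RRM2* under a CMV promoter and had been selected with puromycin, whereas neither step is given for the wild strain. Effects of the vector, the selection and *RRM2* therefore cannot be told apart. For OE replicates 2 and 3 the genotype label names RRM3 and RRM4, while their titles name *RRM2*.

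In mismatch repair, MutS proteins bind a mispaired base or a small loop left by replication, and MutL proteins pass the signal on to strand removal and resynthesis. In nucleotide excision repair, bulky lesions such as those of ultraviolet light are found across the genome or at stalled RNA polymerase, the helix is opened by TFIIH, and nucleases cut on both sides. In base excision repair, a DNA glycosylase removes a single altered base, an AP endonuclease cuts the backbone, and the gap is filled and sealed by a short-patch or a long-patch branch. The long-patch branch uses FEN1 and LIG1, which also process Okazaki fragments during replication.

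The libraries held 14317091 to 17084067 reads on genes, recovered from the deposited FPKM values (fragments scaled to gene length and library depth). *RRM2* itself had 9.17, 9.05 and 8.52 FPKM in wild strain TPC-1 and 50.4, 47.5 and 47.2 in OE cells, and the groups did not overlap. Reads of the endogenous and the lentiviral copy are counted together. Of the thyroid markers, *PAX8*, *FOXE1* and *HHEX* had at least 0.5 FPKM in every library, whereas *TG*, *TSHR* and *SLC5A5* were near 0 and *NKX2-1* had no read. Summed FPKM of 5 epithelial markers was 41.9 to 45.8 in TPC-1 and 87.3 to 89.7 in OE cells, of which *KRT18* alone had means of 41.2 and 85.2, while *KRT19*, *EPCAM* and *CDH1* were near 0. The sum of 3 leukocyte markers was at most 0.0355 in any library. The sum of 3 endothelial markers was 0.873 to 1.05 in TPC-1 and 0.0667 to 0.115 in OE cells. In TPC-1 nearly all of it was *PECAM1* (mean 0.924, against 0.0588 in OE cells), with *VWF* and *CDH5* near 0. *PECAM1* reached 0.5 FPKM only in TPC-1. The sum of 4 fibroblast or muscle markers was 0.910 to 1.04 in TPC-1 and 2.52 to 3.48 in OE cells. Of these, *ACTA2* rose from a mean of 0.143 to 2.53, *COL1A1* fell from 0.816 to 0.501, and *COL3A1* and *DES* were at or near 0. The C cell marker *CALCA* had no read. The part of these markers in the differences below was not tested. In bulk RNA, fewer cells of a type cannot be told apart from less RNA per cell.

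Differences were tested with limma on log2(FPKM + 0.1), and a gene was called at a Benjamini-Hochberg adjusted p of 0.05 or less over 13621 genes. All 34 repair genes passed the minimum of this test. *ERCC5* passed it only through TPC-1, where its FPKM was above 0.5. Of the 34, 14 rose in OE cells, 8 fell and 12 were not called. The share called was 64.7%, against 67.6% of all tested genes, so the number of calls does not set the repair genes apart. By direction, 41.2% rose and 23.5% fell, against 34.9% and 32.7% of all tested genes. The median log2 difference was 0.12 for the repair genes and 0.01 for all tested genes. With an absolute log2 difference of at least 1 added, 2 repair genes rose (*FEN1* and *LIG1*) and 1 fell (*NEIL1*), where 4.48% and 6.97% of all tested genes did so. For 26 of the 34 genes no OE library lay within the range of TPC-1, with 16 above and 10 below it. The share over all tested genes was 72.2% (37.3% above and 35.0% below). *ERCC5* counts among the 10 below. The point estimate was above 0 for 20 of the 34 genes, against 50.8% of all tested genes.

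**Figure D1:**
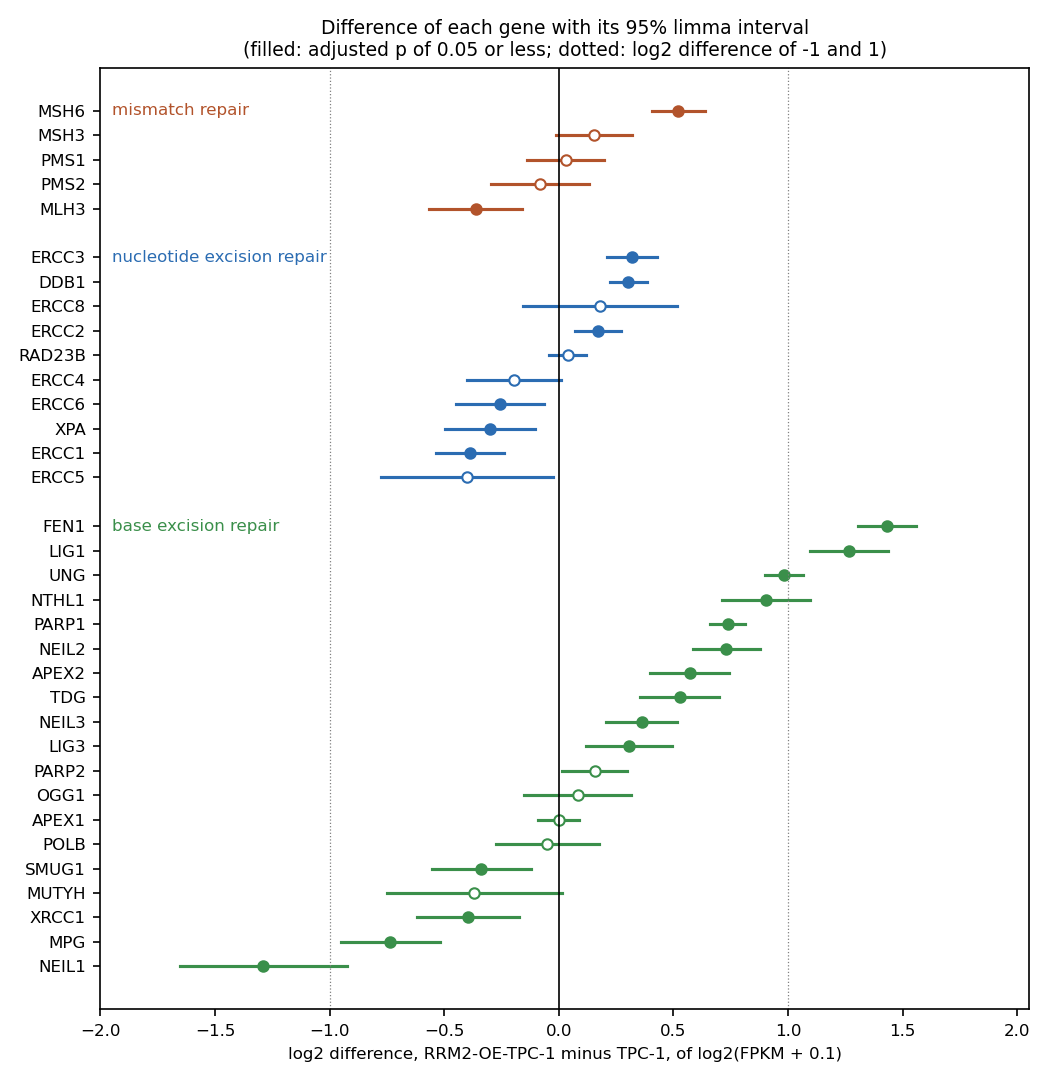
Log2 difference between OE cells and TPC-1 (x axis, log2(FPKM + 0.1)) of the 34 repair genes (y axis), grouped by route, with 95% limma intervals from 3 libraries a group; filled points have an adjusted p of 0.05 or less. Base excision repair spans -1.29 (*NEIL1*) to 1.43 (*FEN1*), while mismatch and nucleotide excision repair stay between -0.40 and 0.52.

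In base excision repair 10 of 19 genes rose and 4 fell (52.6% and 21.1%). The median log2 difference of this route was 0.31 and the median absolute difference 0.53. In nucleotide excision repair 3 of 10 rose and 3 fell (30% each). With *ERCC5* included, the median was -0.08 and the median absolute difference 0.28. In mismatch repair 1 of 5 rose and 1 fell (20% each), with a median of 0.03 and a median absolute difference of 0.15. Over all tested genes 34.9% rose and 32.7% fell, so the counts of nucleotide excision repair are near those shares. The median absolute difference over all tested genes was 0.37. No test was made between the routes, because their members were chosen with results of these data known.

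**Figure D2:**
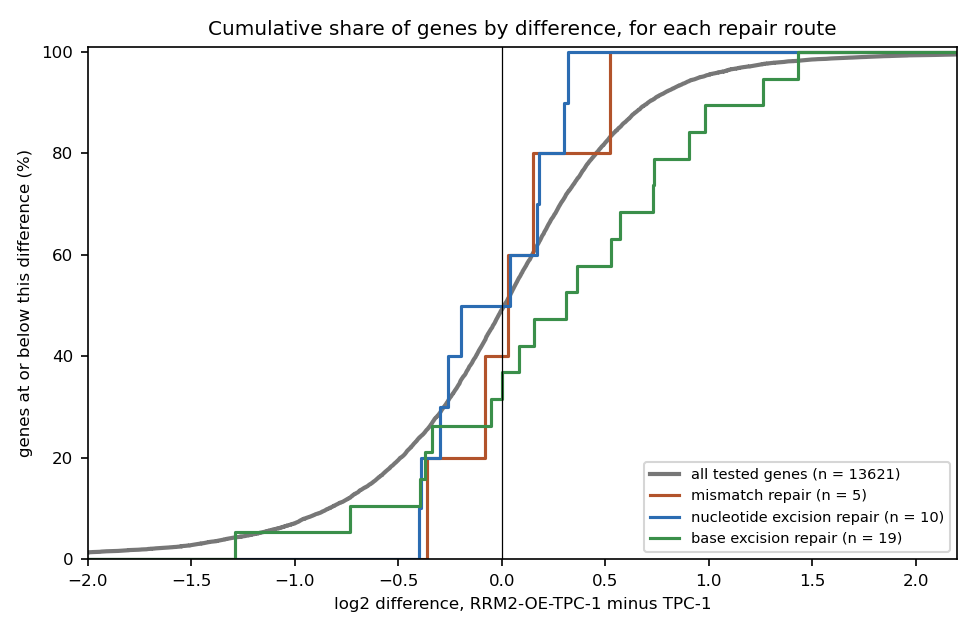
Share of genes (y axis, percent) at or below each log2 difference between OE cells and TPC-1 (x axis), for each repair route and for all 13621 tested genes. The curve of base excision repair lies to the right of that of all genes over most of its range, and the curves of the other routes are steeper and end at 0.52 and 0.32.

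Among the 19 members of base excision repair, the largest rises were those of *FEN1* and *LIG1*, enzymes of flap removal and ligation. *FEN1*, the flap endonuclease, had 15.9, 15.8 and 15.0 FPKM in TPC-1 and 45.3, 42.0 and 39.4 in OE cells. Every OE library was above every TPC-1 library, with a log2 difference of 1.43 (standard error 0.0553, limma adjusted p = 3.26e-07). *LIG1*, the ligase that seals Okazaki fragments and long patches, had 3.60, 4.12 and 3.50 FPKM in TPC-1 and 9.44, 9.20 and 8.70 in OE cells. Its groups were likewise apart, with a log2 difference of 1.26 (standard error 0.0732, limma adjusted p = 2.39e-06). *LIG3* encodes the ligase of mitochondria and, together with XRCC1, of the short patch. *LIG3* rose less, from 2.16 ± 0.0409 to 2.70 ± 0.172 FPKM (SD, n = 3 each), by 0.31 on the log2 scale (limma adjusted p = 0.00983). *POLB*, the polymerase of the short patch, had 2.32 ± 0.170 and 2.23 ± 0.178 FPKM (SD, n = 3 each). Its log2 difference of -0.05 was not called, with a 95% interval of -0.27 to 0.17, and its sign changed without TPC-1 replicate 1 or without OE replicate 3. Of the exonic bases of *FEN1*, 6.70% are shared with *TMEM258* on the opposite strand, and *LIG3* shares 29.1% with *RFFL*, also on the opposite strand. Whether reads were counted by strand is not stated, and reads in such stretches could not be assigned with certainty.

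The ratio of 2 FPKM values within a library shows the same contrast without the scaling between libraries. The ratio of *LIG1* to *LIG3* was 1.71, 1.89 and 1.61 in TPC-1 and 3.26, 3.53 and 3.36 in OE cells. The ratio of *FEN1* to *POLB* was 6.39, 7.33 and 6.53 in TPC-1 and 19.8, 17.7 and 19.4 in OE cells. In both cases the groups were apart and the replicates of a group were close together. The pairs were chosen with earlier results of these data known, and no test was made of them.

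**Figure D3:**
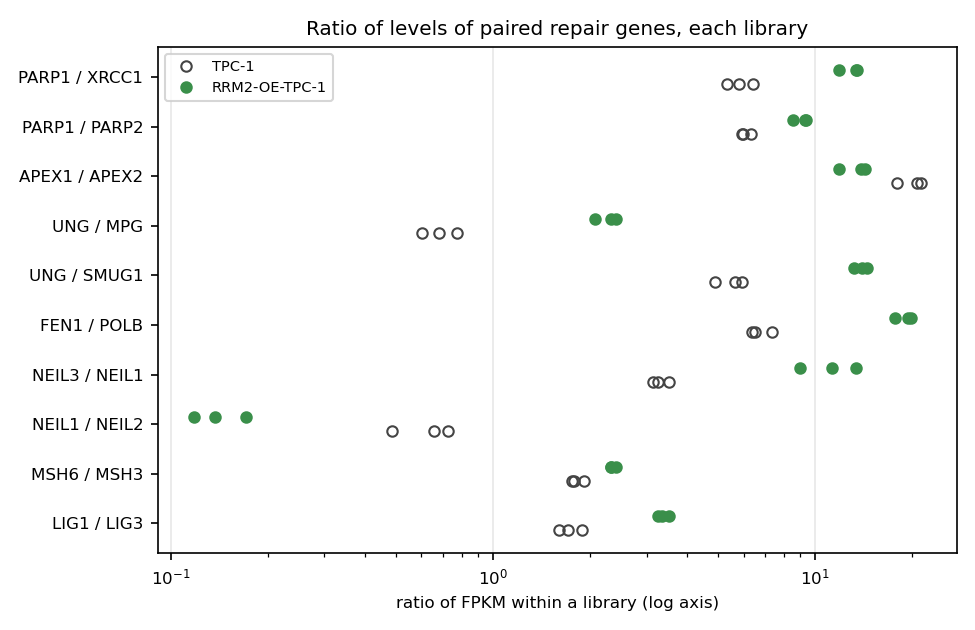
Ratio of the FPKM values of 2 repair genes within each library (x axis, log scale) for 10 pairs (y axis), open for TPC-1 and filled for OE cells, 3 libraries each. The 2 groups do not overlap for any of the 10 pairs, and the ratio falls in OE cells only for *NEIL1* to *NEIL2* and for *APEX1* to *APEX2*.

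Promoter windows of 300 bases (250 before and 50 after the RefSeq start, GRCh38.p14) were found for 31 of the 34 genes. They were searched on both strands for letters of E2F sites, TTTCCCGC, TTTCGCGC, TTTGCCGC and TTTGGCGC, because E2F factors drive many replication genes. Of the 31 windows, 4 (12.9%) held such a match, compared with 3.33% of all 27305 promoters and 5.57% of those of tested genes. The 4 genes were *LIG1* and *MSH6*, which rose, and *MSH3* and *PMS2*, which were not called. No match was found in the windows of the other 11 genes that rose and had a window, among them *FEN1* and *UNG*, or of the 7 that fell and had a window. Only exact matches to these E2F letters were counted, so sites that differ by a base were not covered, and only 1 window per gene was searched. Some windows, among them those of *FEN1*, *DDB1* and *MSH6*, lie inside the gene as annotated in the deposited table. Other starts of these genes were not covered. CCAAT was in 15 of the 31 windows (48.4%, against 35.7% of all promoters) and the GC box GGGCGG in 23 (74.2%, against 44.6% of all and 71.2% of tested genes). TTTGAA or TTCGAA, letters of the CHR element of G2/M genes, were in 3 (9.68%, against 16.6% of all and 10.7% of tested genes). The windows with an E2F match are shown 5′ to 3′ on the strand of the gene with the match in capitals, so that the ones that rose can be read beside the ones that were not called. The first base of the match lies at -114 of the start in *LIG1*, at 3 in *MSH6* and at -43 in *PMS2*. In *MSH3* a match on each strand, at -107 and -103, overlap and are read as 1 run. The windows lie at chr19:48170295-48170594 (*LIG1*, minus strand), chr2:47782895-47783194 (*MSH6*, plus strand), chr5:80654402-80654701 (*MSH3*, plus strand) and chr7:6009057-6009356 (*PMS2*, minus strand).
LIG1: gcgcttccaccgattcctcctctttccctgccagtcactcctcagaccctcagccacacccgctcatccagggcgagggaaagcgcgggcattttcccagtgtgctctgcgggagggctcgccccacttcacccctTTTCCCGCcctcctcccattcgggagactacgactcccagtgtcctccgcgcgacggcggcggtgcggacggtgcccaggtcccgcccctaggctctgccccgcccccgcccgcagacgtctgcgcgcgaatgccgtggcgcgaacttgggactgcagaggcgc
MSH6: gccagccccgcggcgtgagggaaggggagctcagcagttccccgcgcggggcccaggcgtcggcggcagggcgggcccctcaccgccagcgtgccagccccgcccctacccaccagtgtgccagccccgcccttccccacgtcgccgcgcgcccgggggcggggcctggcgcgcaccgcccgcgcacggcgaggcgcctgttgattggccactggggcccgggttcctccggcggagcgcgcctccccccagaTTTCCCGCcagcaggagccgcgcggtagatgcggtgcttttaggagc
MSH3: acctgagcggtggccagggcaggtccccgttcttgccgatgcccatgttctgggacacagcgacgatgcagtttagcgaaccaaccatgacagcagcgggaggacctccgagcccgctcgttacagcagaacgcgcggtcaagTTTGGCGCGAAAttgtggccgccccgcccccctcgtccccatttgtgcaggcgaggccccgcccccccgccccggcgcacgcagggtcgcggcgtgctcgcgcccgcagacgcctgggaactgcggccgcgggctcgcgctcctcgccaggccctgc
PMS2: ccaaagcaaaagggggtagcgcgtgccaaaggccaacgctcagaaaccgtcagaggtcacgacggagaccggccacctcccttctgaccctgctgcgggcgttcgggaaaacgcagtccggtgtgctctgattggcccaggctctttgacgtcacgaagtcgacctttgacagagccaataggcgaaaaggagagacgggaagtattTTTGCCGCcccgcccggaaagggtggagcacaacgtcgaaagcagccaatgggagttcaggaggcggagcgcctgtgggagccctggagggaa

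The glycosylases choose the base to be removed, and 5 of 10 were higher, 3 lower and 2 not called. The shares of 50% higher and 30% lower compare with 34.9% and 32.7% of all tested genes. *UNG*, which removes uracil from DNA, had 13.7, 13.8 and 13.5 FPKM in TPC-1 and 27.7, 27.4 and 26.3 in OE cells, a log2 difference of 0.98 (standard error 0.0356, limma adjusted p = 2.49e-07). *NTHL1*, a glycosylase for oxidized pyrimidines, had 3.16, 2.64 and 3.10 FPKM and 5.87, 5.65 and 5.37, a log2 difference of 0.90 (standard error 0.0830, limma adjusted p = 2.86e-05). *NEIL2*, which also acts on oxidized pyrimidines, had 3.83, 3.81 and 4.27 FPKM and 6.74, 6.54 and 6.65, a log2 difference of 0.73 (standard error 0.0628, limma adjusted p = 1.99e-05). All 3 genes had every OE library above every TPC-1 library. *TDG*, which removes thymine or uracil opposite guanine and takes part in DNA demethylation, had 7.24, 8.60 and 7.28 FPKM and 11.5, 11.3 and 10.6, a log2 difference of 0.53 (standard error 0.0743, limma adjusted p = 3.49e-04). *NEIL3*, a glycosylase of proliferating cells, rose from 8.06 ± 0.701 to 10.4 ± 0.280 FPKM (SD, n = 3 each; log2 difference 0.36, limma adjusted p = 0.00157). For *NTHL1*, 16.5% of the exonic bases are shared with *TSC2* on the opposite strand.

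Against these rises, *NEIL1* and *MPG* fell. *NEIL1*, the relative of *NEIL2* and *NEIL3*, had 2.77, 2.51 and 2.07 FPKM in TPC-1 and 0.798, 0.900 and 1.14 in OE cells. The highest OE library was below the lowest TPC-1 library, and the log2 difference was -1.29 (standard error 0.157, limma adjusted p = 1.50e-04). It rests on 80 to 321 reads per library, and with a pseudocount of 1 it was -0.83. Of its exonic bases, 26.4% are shared with *MAN2C1* on the opposite strand, whose FPKM was 5.87 in TPC-1 and 3.36 in OE cells. *MPG*, the glycosylase for alkylated purines, had 20.1, 17.8 and 22.4 FPKM in TPC-1 and 13.3, 11.4 and 11.3 in OE cells, a log2 difference of -0.74 (standard error 0.0931, limma adjusted p = 1.86e-04). It shares 27.3% of its exonic bases with *NPRL3* on the opposite strand. *SMUG1*, another enzyme that removes uracil, fell from 2.51 ± 0.237 to 1.96 ± 0.0604 FPKM (SD, n = 3 each; log2 difference -0.34, limma adjusted p = 0.0124), while *UNG* rose.

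The enzymes of the 8-oxoguanine system were among the lowest and did not pass the test. *OGG1*, which removes 8-oxoguanine, had 1.89, 1.67 and 1.77 FPKM in TPC-1 and 1.93, 2.01 and 1.72 in OE cells, with a 95% interval of the log2 difference of -0.15 to 0.31. *MUTYH*, which removes adenine opposite 8-oxoguanine, had 1.73, 1.67 and 1.69 FPKM in TPC-1 and 1.68, 1.24 and 1.03 in OE cells. Its OE libraries were spread more widely than its TPC-1 libraries, and its log2 difference of -0.37 was not called (limma adjusted p = 0.0785). Without OE replicate 1 it was -0.55 and was called (limma adjusted p = 0.00724), as it also was with voom and among protein-coding genes only. Without OE replicate 3 it was -0.22 (limma adjusted p = 0.229). *OGG1* shares 25.0% of its exonic bases with *CAMK1* and *MUTYH* shares 14.1% with *TOE1*, both on the opposite strand.

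The order of the glycosylases by FPKM, which is per length, differed between the groups. *MPG* was the highest in TPC-1, with 30.9% ± 2.82 of the summed FPKM of the 10 genes, and *UNG* the second, with 21.1% ± 0.688 (SD, n = 3). In OE cells, *UNG* was the highest with 34.4% ± 0.645, and *MPG* the second with 15.2% ± 0.898 (SD, n = 3). *UNG* was below *MPG* in each of the 3 TPC-1 libraries and above it in each of the 3 OE libraries, with ratios of *UNG* to *MPG* of 0.682, 0.773 and 0.605 and of 2.08, 2.41 and 2.32. The summed FPKM was 64.9 ± 1.64 in TPC-1 and 79.0 ± 2.97 in OE cells (SD, n = 3 each). Among the NEIL genes, the ratio of *NEIL3* to *NEIL1* was 3.14, 3.25 and 3.53 in TPC-1 and 13.4, 11.3 and 8.97 in OE cells.

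**Figure D4:**
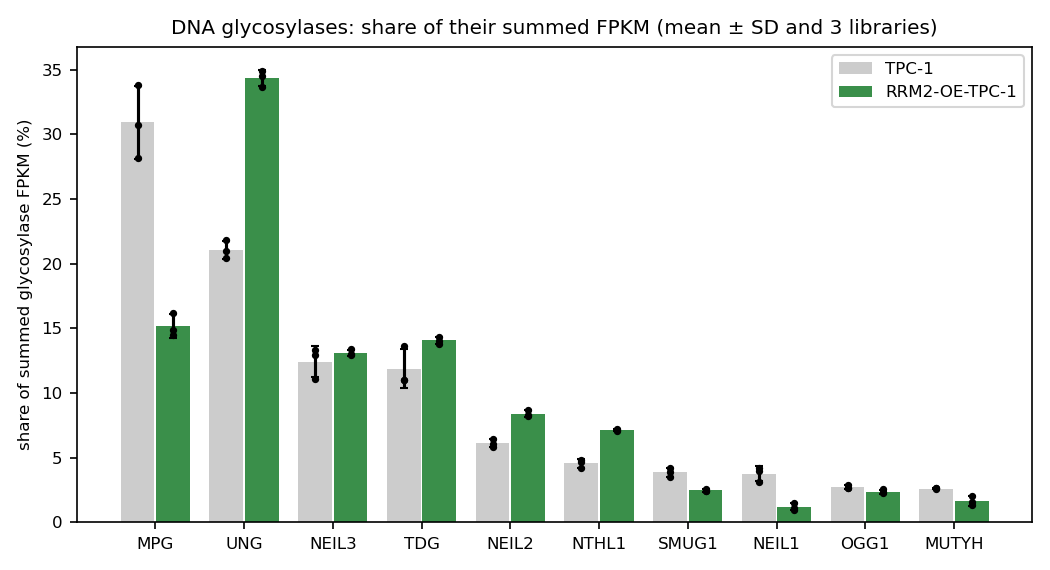
Share of each DNA glycosylase in the summed FPKM of the 10 glycosylases (y axis, percent), as mean ± SD with the 3 libraries of each group as points. *MPG* leads in TPC-1 with 30.9% and *UNG* in OE cells with 34.4%.

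Of the AP endonucleases, the main enzyme *APEX1* was the most highly expressed of the 34 genes and was not called. It had 120.2, 112.7 and 110.3 FPKM in TPC-1 and 112.3, 115.5 and 115.0 in OE cells, with overlapping groups and a 95% interval of the log2 difference of -0.09 to 0.09. *APEX2*, whose product also degrades 3′ ends and binds PCNA, had 5.65, 5.46 and 6.13 FPKM and 9.44, 8.31 and 8.03, a log2 difference of 0.57 (standard error 0.0750, limma adjusted p = 2.31e-04). The ratio of *APEX1* to *APEX2* was 21.3, 20.6 and 18.0 in TPC-1 and 11.9, 13.9 and 14.3 in OE cells.

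The sensors and the scaffold of strand breaks diverged. *PARP1*, the main poly(ADP-ribose) polymerase at breaks, had 36.3, 34.6 and 35.1 FPKM in TPC-1 and 59.8, 58.2 and 58.7 in OE cells, a log2 difference of 0.74 (standard error 0.0325, limma adjusted p = 6.47e-07). *XRCC1*, the scaffold that PARP1 recruits and that holds LIG3 and POLB, had 6.83, 5.95 and 5.46 FPKM and 5.04, 4.32 and 4.39, a log2 difference of -0.40 (standard error 0.0958, limma adjusted p = 0.00642). The ratio of *PARP1* to *XRCC1* was 5.32, 5.81 and 6.43 in TPC-1 and 11.9, 13.5 and 13.4 in OE cells, with no overlap between the groups. *XRCC1* shares 15.5% of its exonic bases with *L34079.3* on the opposite strand and 6.48% with *L34079.1* on the same strand. No read was given to either. *PARP2*, the second break sensor, had 5.75, 5.78 and 5.93 FPKM and 7.03, 6.24 and 6.25. Its groups did not overlap, but its log2 difference of 0.16 was just short of the call (limma adjusted p = 0.0514), which it passed among protein-coding genes only (0.0388). It was 0.10 without OE replicate 1 (limma adjusted p = 0.155) and with library totals (0.207).

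Among the 5 members of mismatch repair, *MSH6* was the 1 called higher. *MSH6*, the MutS protein for single mispairs, had 6.81, 6.46 and 6.45 FPKM in TPC-1 and 9.87, 9.17 and 9.39 in OE cells, a log2 difference of 0.52 (standard error 0.0505, limma adjusted p = 3.92e-05). *MSH3*, the MutS protein for larger loops, had 3.86, 3.62 and 3.36 FPKM and 4.10, 3.94 and 4.03. Its groups did not overlap, but the log2 difference of 0.15 was not called (limma adjusted p = 0.0878), and among the alternatives it was called only without TPC-1 replicate 1 (0.20, adjusted p = 0.0476). With library totals it was 0.097 (adjusted p = 0.243). The ratio of *MSH6* to *MSH3* was 1.77, 1.78 and 1.92 in TPC-1 and 2.41, 2.33 and 2.33 in OE cells. *MSH6* shares 16.2% of its exonic bases with *FBXO11* on the opposite strand.

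Of the 3 MutL genes 1 fell and 2 were not called. *MLH3*, a MutL protein with a main role in meiosis, had 4.01, 5.01 and 4.52 FPKM in TPC-1 and 3.40, 3.43 and 3.59 in OE cells, a log2 difference of -0.36 (standard error 0.0875, limma adjusted p = 0.00645). *PMS2*, the endonuclease of the main MutL complex, had 6.38, 6.80 and 5.24 FPKM and 5.84, 5.65 and 5.79, with a log2 difference of -0.08 (limma adjusted p = 0.448). Among the alternatives it was called lower only without TPC-1 replicate 3, the lowest of its TPC-1 libraries (-0.19, adjusted p = 0.0307). Without TPC-1 replicate 2, the highest, it was -0.0066 (0.953). *PMS1*, whose role in repair is minor, had 4.35, 4.50 and 4.35 FPKM and 4.87, 4.51 and 4.13, with a 95% interval of the log2 difference of -0.14 to 0.20, and its sign turned with scaling to library totals and without OE replicate 1. The value of *PMS2* is uncertain because it has near-identical copies, of which *PMS2CL* (3.02 and 2.35 FPKM), *PMS2P1* (3.36 and 4.87) and *PMS2P3* (3.56 and 3.75) were the highest in TPC-1 and OE cells.

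**Figure D5:**
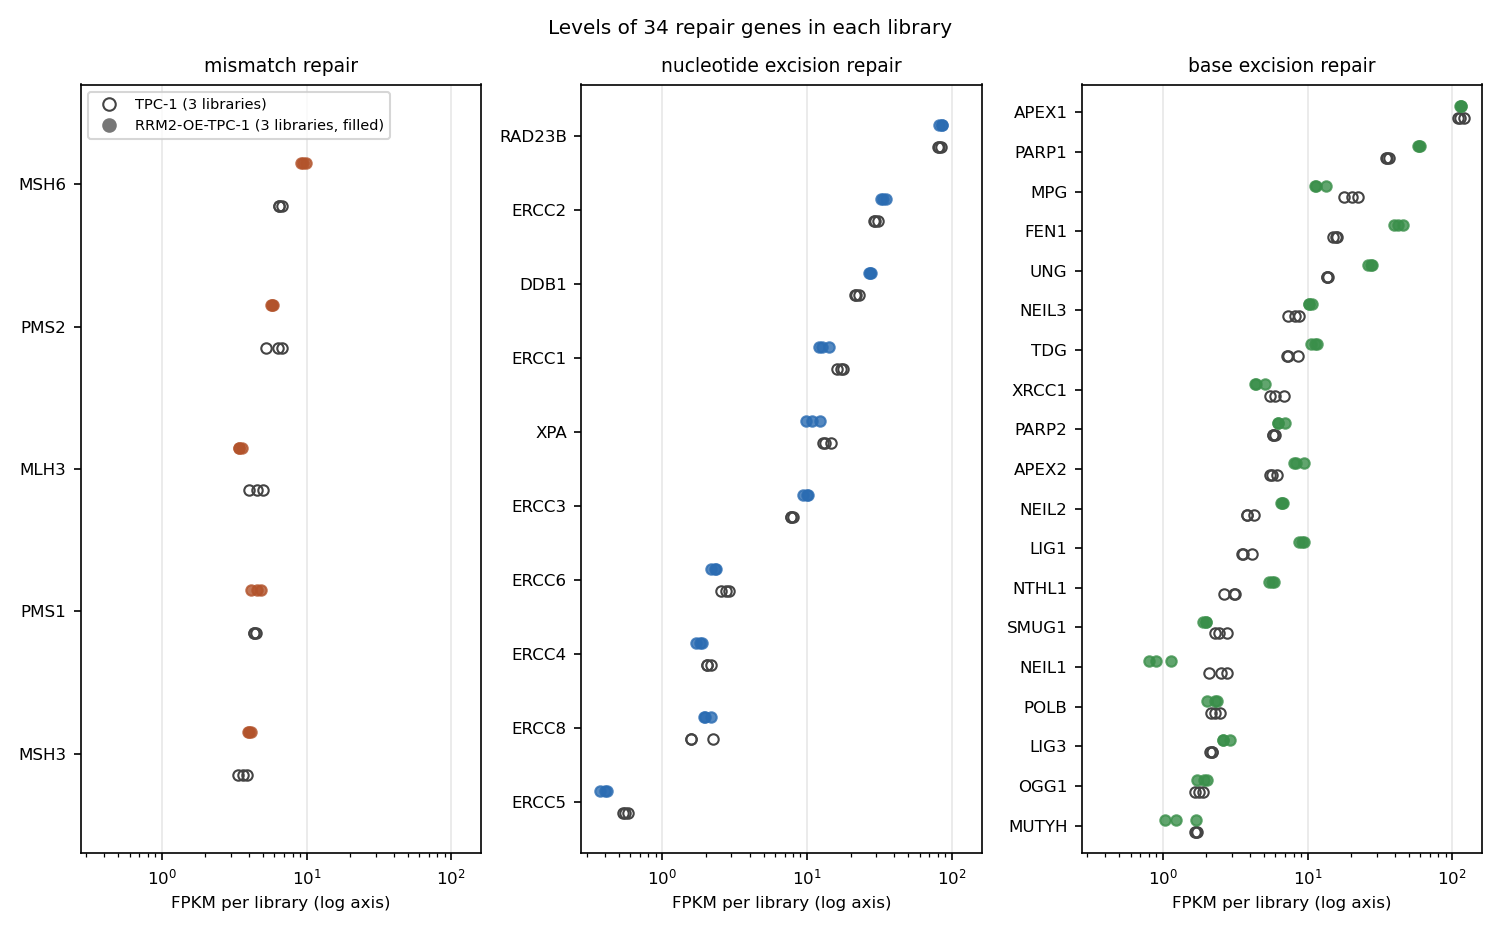
FPKM of each repair gene in each library (x axis, log scale), by route and ordered by the TPC-1 mean (y axis), open for TPC-1 and filled for OE cells, 3 libraries each. Mean levels in TPC-1 span 0.552 (*ERCC5*, uncertain because of shared exons) to 114.4 FPKM (*APEX1*). The largest gaps between the groups are those of *FEN1*, *LIG1* and *NEIL1*.

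None of the 10 nucleotide excision repair genes listed above moved by more than 0.40 on the log2 scale. Among the genes of damage recognition, *DDB1*, the adaptor of the ubiquitin ligase that binds ultraviolet lesions, rose from 22.0 ± 0.627 to 27.1 ± 0.383 FPKM (SD, n = 3 each; log2 difference 0.30, limma adjusted p = 1.18e-04). *RAD23B*, the stabilizer of the lesion sensor XPC, was the second most highly expressed of the 34 genes, with 84.7, 81.2 and 80.8 FPKM in TPC-1 and 81.9, 86.0 and 85.5 in OE cells. Its groups overlapped, and the 95% interval of its log2 difference was -0.04 to 0.12. Both helicases of TFIIH rose. *ERCC3* (XPB) had 7.98, 7.79 and 7.79 FPKM in TPC-1 and 10.1, 9.97 and 9.39 in OE cells, a log2 difference of 0.32 (standard error 0.0468, limma adjusted p = 4.33e-04). *ERCC2* (XPD) rose from 29.9 ± 0.980 to 33.7 ± 1.47 FPKM (SD, n = 3 each; log2 difference 0.17, limma adjusted p = 0.00803).

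Of the genes that verify and cut the lesion, *XPA* and *ERCC1* fell and *ERCC4* and *ERCC5* were not called. *XPA*, which checks the damaged strand and places the nucleases, fell from 13.6 ± 0.909 to 11.0 ± 1.24 FPKM (SD, n = 3 each; log2 difference -0.30, limma adjusted p = 0.0131). *ERCC1*, the partner of the 5′ nuclease XPF, had 17.8, 16.2 and 17.2 FPKM in TPC-1 and 14.2, 12.2 and 12.7 in OE cells, a log2 difference of -0.39 (standard error 0.0641, limma adjusted p = 8.33e-04). *ERCC4* (XPF itself) had 2.02, 2.18 and 2.02 FPKM and 1.82, 1.70 and 1.88. Its log2 difference of -0.20 was not called (limma adjusted p = 0.0832), although it was with scaling to library totals (0.0375) and with voom (0.0407). *ERCC5*, the 3′ nuclease XPG, had 0.574, 0.534 and 0.548 FPKM and 0.411, 0.368 and 0.404, a log2 difference of -0.40 (standard error 0.162, limma adjusted p = 0.0574). It was not called, and since the gene entered the test only through TPC-1, where it was higher, its test is no support for a difference. The adjusted p was 0.0174 with voom, 0.0372 with library totals, 0.0352 among protein-coding genes only and 0.237 with no filter on low values. *ERCC1* and *ERCC4* had every OE library below every TPC-1 library, as did 35.0% of all tested genes. The *ERCC5* values rest on 49 to 79 reads. Of its exonic bases, 63.2% are also exons of the read-through gene *BIVM-ERCC5*, to which no read was given in any library. *ERCC5* also shares 19.1% with *BIVM* on the same strand. Reads in such stretches could not be assigned with certainty, so the low level of *ERCC5* is uncertain. *ERCC1* shares 28.6% of its exonic bases with *CD3EAP* on the opposite strand, whose FPKM was higher in OE cells (5.12) than in TPC-1 (2.27). *ERCC4* shares 25.7% with *AC010401.1*, also on the opposite strand, whose FPKM was 0.0124 in TPC-1 and 0.0135 in OE cells.

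The entry genes of transcription-coupled repair were at low levels. *ERCC6* (CSB), the remodeler at stalled RNA polymerase, fell from 2.73 ± 0.167 to 2.27 ± 0.0978 FPKM (SD, n = 3 each; log2 difference -0.26, limma adjusted p = 0.0239). This call was lost without TPC-1 replicate 2 (adjusted p = 0.0772), without TPC-1 replicate 3 (0.0656) and without OE replicate 2 (0.0774). *ERCC8* (CSA), its ubiquitin ligase partner, had 1.58, 2.25 and 1.57 FPKM in TPC-1 and 2.17, 1.93 and 1.98 in OE cells. *ERCC8* shares 28.3% of its exonic bases with the pseudogene *GNL3LP1* on the same strand, so its low level is uncertain. TPC-1 replicate 2 stood above the other TPC-1 libraries, and the log2 difference of 0.18 (limma adjusted p = 0.299) became 0.34 without it and was called (adjusted p = 0.0258), whereas it was 0.10 without TPC-1 replicate 1 (0.596) and 0.096 without TPC-1 replicate 3 (0.618).

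Other genes of the same routes were read from a hand-written list of 49 companions, of which 47 passed the minimum of the test. Of these 34 rose, 8 fell and 5 were not called. The share that rose was 72.3%, against 34.9% of all tested genes and 41.2% of the 34 repair genes above. The share that fell was 17.0%, against 32.7% of all tested genes. Among the companions of mismatch repair, which are mostly replication factors, 13 of 15 rose and 1 fell. *PCNA*, the sliding clamp, had the largest rise, from 34.1 ± 1.01 to 121.7 ± 1.94 FPKM (SD, n = 3 each; log2 difference 1.83, limma adjusted p = 1.14e-08). *EXO1*, the exonuclease of strand removal, rose by 1.35 on the log2 scale (limma adjusted p = 1.65e-06). *POLD4*, the smallest subunit of DNA polymerase delta, fell from 4.22 ± 0.578 to 2.02 ± 0.332 FPKM (SD, n = 3 each; log2 difference -1.03, limma adjusted p = 2.44e-04).

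Among the companions of nucleotide excision repair, 12 of 19 rose and 3 fell (63.2% and 15.8%, against 34.9% and 32.7% of all tested genes). *DDB2*, the lesion-binding partner of *DDB1* and a p53 target, rose from 5.53 ± 0.289 to 15.9 ± 0.197 FPKM (SD, n = 3 each; log2 difference 1.51, limma adjusted p = 1.76e-07), beside 0.30 for *DDB1*. *CCNH*, a subunit of the TFIIH kinase, had the largest fall, of -0.30 (limma adjusted p = 0.00241). Among the companions of base excision repair, 9 of 13 rose and 4 fell (69.2% and 30.8%). *POLE2*, a subunit of DNA polymerase epsilon, rose by 1.26 on the log2 scale (limma adjusted p = 8.96e-06), and *POLL*, the gap-filling DNA polymerase lambda, fell from 5.20 ± 0.671 to 3.58 ± 0.125 FPKM (SD, n = 3 each; log2 difference -0.52, limma adjusted p = 0.00151).

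Genes of the cell cycle moved with the groups as well. All 25 genes of an S phase list rose, with a median log2 difference of 1.19. In a G2/M list 19 of 20 genes rose, with a median of 0.81. Of all tested genes 34.9% rose. Medians of the repair genes were 0.79 for the 4 genes of gap filling, flap removal and ligation and 0.22 for the 10 glycosylases. They were 0.34 for the MutS genes, 0.28 for the AP endonucleases and 0.16 for break sensing and scaffold. Damage recognition had 0.17, the TFIIH helicases with *XPA* 0.17, transcription-coupled entry -0.04 and the MutL genes -0.08. The nuclease genes *ERCC1* and *ERCC4* had log2 differences of -0.39 and -0.20, the latter not called. *ERCC5* is left out here because it entered the test only through TPC-1. The part of cell cycle phase in the differences of the repair genes was not tested.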

How the data were processed

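mRNA was sequenced in 3 libraries each of wild strain TPC-1 and *RRM2*-OE-TPC-1. The methods describe poly(A) selection and biological triplicates, whereas the labels describe rRNA removal and RNase R. Per the submitters' processing notes the authors used HISAT2 2.0.5, featureCounts 1.5.0 and build GRCh38.p14, and the deposited values are FPKM computed by the authors. Their group comparison used DESeq2 1.20.0. The strand setting of counting is not given in the sources used here.

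Whole reads were recovered from the low FPKM steps (100% of values whole within 0.01) and gave 14317091 to 17084067 reads on genes. Genes with at least 0.5 FPKM and 10 reads in 3 libraries were tested with limma 3.58.1 (R 4.3.3, mean-variance trend) on log2(FPKM + 0.1), with Benjamini-Hochberg adjustment over all tested genes. Fold changes on this scale understate those of low genes. Intervals are 95% limma intervals. An exact permutation test of 3 against 3 libraries cannot go below p = 0.1, so none is given. The fit was also run on simulated reads with a fixed spread and few or no changed genes. Since 67.6% of tested genes were called here, that run does not match the setting of these calls.

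Every repair gene was named, with library values for those called with an absolute log2 difference of at least 0.5 and for the 3 largest changes of each route. Companions were named if past a log2 difference of 1 or if they had the largest rise or fall of a route. The members and lists were chosen with earlier results of these data known. Alternatives covered the filter, pseudocount, scaling, voom, protein-coding genes, a replicate block and leaving out each library. Promoter sequences came from RefSeq (GRCh38.p14). PCNA-binding peptides were not analysed here, and some genes are not reported here.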

Additional observations from a re-analysis of the deposited data

How the results depend on the processing

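Of the 34 repair genes, all kept direction and call without a filter on low values, with pseudocounts of 0.01 and 1, and with median-of-ratios scaling. The signs that turned belonged to genes that were not called. *APEX1* became 0.011 without *RRM2*-OE-TPC-1 replicate 1 and 0.0347 without TPC-1 replicate 1 (range with 1 library left out -0.0271 to 0.0347). *PMS1* became -0.0272 with scaling to library totals and -0.0277 without *RRM2*-OE-TPC-1 replicate 1 (range -0.0277 to 0.0885), and the mismatch repair median, which is its value, turned with it to -0.0272 and -0.0277. *POLB* became 0.013 without *RRM2*-OE-TPC-1 replicate 3 and 0.0026 without TPC-1 replicate 1 (range -0.0979 to 0.013), and *RAD23B* became -0.0199 with library totals. With a log2 difference of at least 1 required, the counts were 610 higher and 950 lower for all tested genes, 2 and 1 for the repair genes, 2 and 1 for base excision repair, 0 and 0 for mismatch repair, and 0 and 0 for nucleotide excision repair. Under that requirement, 920 of all genes were higher with no filter, 303 were higher and 413 lower with a pseudocount of 1, and 0 repair genes were lower with a pseudocount of 1. In nucleotide excision repair 5 genes were lower with library totals and 5 with voom, *ERCC5* among them in both settings. The causes were not tested.

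With 1 library left out, 14 to 15 repair genes were higher and 7 to 9 lower. In mismatch repair 1 to 2 were higher (2 without TPC-1 replicate 1) and 1 to 2 lower (2 without TPC-1 replicate 3), with a median of -0.0277 to 0.0885. Replicate numbers did not pair the libraries, since deviations of same-numbered libraries correlated at -0.011, -0.0060 and -0.055. With the replicate block 14 repair genes were higher and 7 lower, and the call of *ERCC6* was lost (limma adjusted p = 0.0521).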
